A study of Mus musculus with 2 samples.

Results

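Cytl1-positive endothelial cells of mouse vein grafts were a small set of blood vessel lining cells found almost entirely in 1 of 2 libraries. In that library, of No-Touch grafts, they carried more summed RNA of elastin and some other matrix proteins than other endothelial cells. They also carried more of the bone morphogenetic proteins Bmp4 and Bmp6, and less of most venous and capillary genes measured. A cell barcode was a member when it held at least 500 genes and 1000 UMIs (unique molecular identifiers, each standing for 1 captured RNA molecule) with at most 10% mitochondrial UMIs, had a UMI of at least 4 of the 6 endothelial genes Pecam1, Cdh5, Tie1, Egfl7, Emcn and Ptprb, no UMI of the lymphatic gene Prox1, less than 1% of its UMIs from Col1a1, Col1a2 and Col3a1, and at least 2 UMIs of Cytl1. Of 21983 barcodes that passed the first 3 limits, 67 were members, 59 in the No-Touch library and 8 in the conventional library.

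The series compared veins grafted in a conventional way with veins grafted by the No-Touch technique, in which the vein is moved with the tissue around it. Both samples came from C57BL6/J mice aged 10 to 12 weeks, with no transgene or drug named in the labels for either. The protocol text also mentions sorts by the fluorescent protein tdTomato, sorts of CD45-positive cells and allografts. After digestion, nucleated living cells that lacked CD45, a surface antigen of leukocytes, were sorted and captured in droplets on the 10x Genomics platform. The labels say neither how many animals gave each library nor how long the grafts stayed in place. With 1 library for each kind of graft, differences between the grafts cannot be told apart from differences between 2 libraries, and no p-value can be given.

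Cytl1 encodes a small secreted cytokine-like protein, found in blood progenitors and cartilage. Endothelial cells differ along the vascular tree: large arteries and the endocardium carry Bmx, a cytoplasmic tyrosine kinase, and connexins such as Gja5 and Gja4, whereas veins and venules carry Nr2f2, Selp and Ackr1. Elastin, made from Eln, is the stretchable core of elastic fibres and is laid down with fibulins, LTBP proteins and lysyl oxidase. Mgp, matrix Gla protein, binds bone morphogenetic proteins and restrains calcification of the vessel wall.

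The promoters of the gene that chose the cells and of the arterial gene among their markers are shown because both genes were detected together in most No-Touch members. Each run is the 250 bases before the start of the RefSeq transcript on GRCm38.p6, and capitals mark every match, on either strand, to 4 short motifs: AGGAAG for ETS factors, CCACCC for KLF factors, TGGGAA for RBPJ and AACAAT for SOX factors.
Cytl1, chr5:37735269-37735518, plus strand: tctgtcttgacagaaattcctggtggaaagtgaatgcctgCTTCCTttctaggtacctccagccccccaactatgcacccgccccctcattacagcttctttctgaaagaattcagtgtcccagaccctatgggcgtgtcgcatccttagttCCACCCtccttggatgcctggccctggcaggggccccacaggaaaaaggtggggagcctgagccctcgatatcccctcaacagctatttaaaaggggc
Bmx, chrX:164258194-164258443, minus strand: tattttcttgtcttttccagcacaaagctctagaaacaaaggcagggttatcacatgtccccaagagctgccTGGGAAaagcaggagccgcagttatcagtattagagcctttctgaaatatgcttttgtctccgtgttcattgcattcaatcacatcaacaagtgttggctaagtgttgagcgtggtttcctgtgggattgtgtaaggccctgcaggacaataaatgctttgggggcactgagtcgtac
The Cytl1 window held 1 ETS and 1 KLF match, and the Bmx window held 1 RBPJ match. Of 32851 promoter windows of the same length, 29.5% held the ETS letters, 28.1% the KLF letters, 21.6% the RBPJ letters and 9.42% the SOX letters. These matches are to letters and are no measure of binding. The table held no window for Eln or Mgp. By GENCODE vM21 on GRCm38, Cytl1 lies on chromosome 5 at 37735519 to 37739820, Bmx on chromosome X at 164192842 to 164258193, Eln on chromosome 5 at 134702593 to 134747323 and Mgp on chromosome 6 at 136872435 to 136875823.

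Facts of the libraries that bear on these cells are few. The files hold 11899 conventional barcodes with 200851272 UMIs and 12450 No-Touch barcodes with 373319906 UMIs, and the kept barcodes had medians of 16778 and 28472 UMIs. Members had a median of 17983 UMIs (conventional) and 23674 UMIs (No-Touch), against 12882 and 20463 UMIs in endothelial cells of the same gate without a Cytl1 UMI, which are called Cytl1-negative below. The 2 libraries shared 22 barcode sequences, and 0 of these belonged to a member.

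The share of Cytl1-positive cells among endothelial cells differed between the libraries. In the No-Touch library 59 of 373 gate cells were members, 15.8% (12.3 to 19.9, exact Clopper-Pearson 95% interval, which covers counting error only). In the conventional library 8 of 767 were, 1.04% (0.451 to 2.04), so that the No-Touch share was 15.2 times as high. Of all kept barcodes the members made up 0.512% and 0.0765%. The gate as a whole held 3.24% of kept No-Touch and 7.33% of kept conventional barcodes, so the order of the members' shares was the opposite of that of the gate. When every cell was thinned to 5000 UMIs, 46 of 368 No-Touch cells (12.5%) and 2 of 684 conventional cells (0.292%) still had 2 Cytl1 UMIs, a ratio of 42.8, with 5 and 83 shallower cells left out. Sorting and digestion of each graft can set such shares, and their part was not tested.

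In No-Touch cells Cytl1, on which the cells were chosen, ran without a gap from 1 to many UMIs. Members held 2 to 163 Cytl1 UMIs with a median of 18, 306 gate cells held 0 and 8 held 1. Just inside the limit 4 cells had 2 Cytl1 UMIs, and 4 each had 3, 4 and 5, and just outside it the 8 cells with 1 UMI had 1151 CPM of Eln, 82.2 CPM of Bmx and 1151 CPM of Selp (CPM, UMIs per 1000000 UMIs, summed over the cells of a group). In the conventional library the members held 2 to 53 Cytl1 UMIs with a median of 5. There 1 cell had 2 Cytl1 UMIs, and 6 cells just outside the limit had 1, with 351 CPM of Eln and 0 UMIs of Bmx. Among leukocytes that had passed the sort (Ptprc UMI, no endothelial gene), which should lack Cytl1, 0 of 250 No-Touch cells had 2 Cytl1 UMIs at 5000 UMIs per cell (exact 95% upper bound 1.46%).

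**Figure D1:**
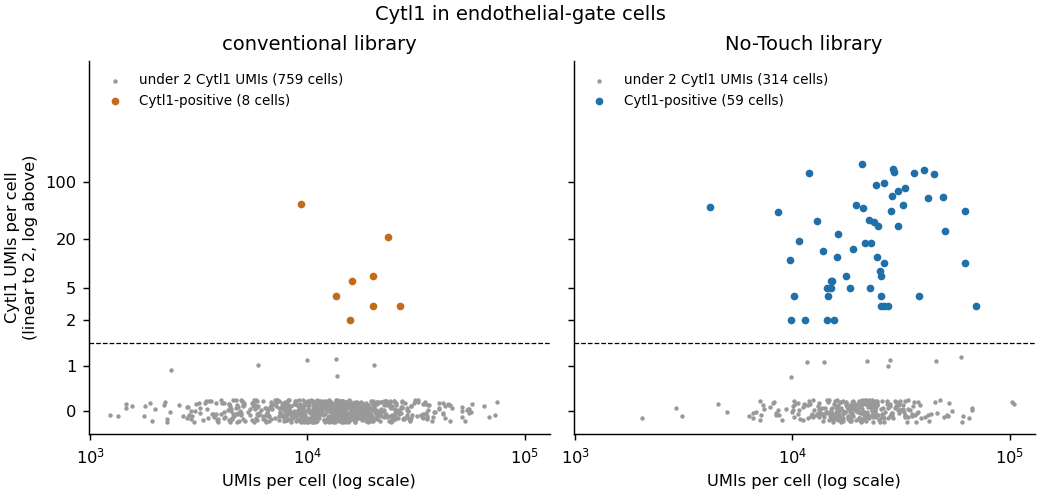
Cytl1 UMIs in each endothelial-gate cell (vertical axis, linear to 2 and logarithmic above) against the total UMIs of the cell (horizontal axis, logarithmic), for the conventional library on the left and the No-Touch library on the right. Colored points are the 8 and 59 members, grey points are cells with 0 or 1 Cytl1 UMI, spread vertically so that they can be seen, and the dashed line marks the limit.

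Members lay near each other in expression when Cytl1 was left out. Among the 15 nearest neighbours of a cell, computed from 20 principal components of 2000 variable genes within the gate, other members made up a mean of 59.8% for the 59 No-Touch members, against 15.8% of the gate. For Cytl1-negative No-Touch cells the mean was 7.04%, and 41 of 59 members had members as at least 50% of their neighbours. Cells with 1 Cytl1 UMI had a mean of 44.2%. For the 8 conventional members the mean was 13.3%, where 7 other members are the most a cell can have. Selp-high cells (Cytl1-negative, at least 5 Selp UMIs) have the most RNA of the venular adhesion protein P-selectin. They made up 47.5% of the neighbours of conventional members and 62.8% of those of conventional Cytl1-negative cells. For arterial-marker cells (Cytl1-negative, at least 2 UMIs of Gja5 or Sema3g) these shares were 18.3% and 6.15%. Since variable genes and neighbours came from the same cells, these figures describe the groups and test nothing.

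The endothelial label rests on the 6 endothelial genes of the rule, which say nothing more about it. Of endothelial genes outside the rule, Flt1 was at 207 CPM in No-Touch members. In sorted leukocytes Flt1 was at 12.7 CPM and in collagen-rich cells without an endothelial gene at 3.2 CPM. The co-receptor Eng was at 298, 26.2 and 58.9 CPM. Both were lower in members than in Cytl1-negative cells (579 and 536 CPM), and Kdr was lower still (27.5 against 252 CPM). Of the rule genes, Cdh5 (408 against 711 CPM) and Egfl7 (545 against 931 CPM) were also lower, while Pecam1, Tie1, Emcn and Ptprb were not. The 11 leukocyte markers summed to 0.0164% of UMIs in members and 0.00555% in Cytl1-negative cells, with Ptprc at 9.38 and 5.4 CPM. Lymphatic markers summed to 0.00791%, against 2.22% in Prox1-positive endothelial cells, and Prox1 was at 0 by the rule. Pericyte markers summed to 0.0174% in members and 0.0116% in Cytl1-negative cells. Fibroblast markers, all 11 of which had UMIs, summed to 0.706% in No-Touch members (0.175% to 2.60% by cell), 0.443% in Cytl1-negative cells and 5.21% in collagen-rich cells without an endothelial gene, while the 3 collagens among them were limited by the rule. Smooth muscle markers summed to 0.151% in No-Touch members and 0.0653% in Cytl1-negative cells, and 1 cell held 43.7% of the members' Acta2 UMIs.

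Fibroblast and smooth muscle markers were thus higher in members, and Eln, Mgp and Fbln5 were set against them. Per Dcn UMI, Dcn being the decorin of fibroblasts, No-Touch members had 0.588 Eln UMIs, Cytl1-negative cells 0.0941, sorted leukocytes 0.102 and collagen-rich cells 0.0526. For Mgp the same ratios were 3.91, 1.31, 0.338 and 0.274, and for Fbln5 0.182, 0.0874, 0.035 and 0.019. These collagen-rich cells were not chosen on Cytl1. Arterial-marker cells of the No-Touch library had 0.0493 Eln, 2.69 Mgp and 0.0517 Fbln5 UMIs per Dcn UMI. In the conventional library Fbln5 per Dcn UMI was lower in members (0.139) than in arterial-marker cells (0.319). Eln (0.831 and 0.167) and Mgp (1.42 and 1.02) were higher in members there. No-Touch barcodes with at least 2 Cytl1 UMIs and 0 endothelial genes (26) had 1628 CPM of Eln, 23659 CPM of Mgp and 9203 CPM of Dcn. Members had 2065, 13722 and 3511 CPM, and a contribution of such cells to member barcodes was not tested. At 5000 UMIs per cell, No-Touch members had a mean of 10.9 Eln UMIs against 1.09 in sorted leukocytes, and 13.6 Dcn UMIs against 10. Without the 30 No-Touch members in which fibroblast, smooth muscle and pericyte markers passed 0.5% of UMIs, with the same limit for Cytl1-negative cells, the log2 ratio of Eln was 3.98 and that of Mgp 3.82, both larger than with all 59 members (3.75 and 2.70). In the conventional library, where 5 members were left, the same limit moved Eln from 5.25 to 2.99, Mgp from 2.92 to 2.09 and Fbln5 from 2.98 to 0.84, under 2 times.

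In the No-Touch library 208 of 3740 genes at 50 CPM or more in either group (5.56%) had at least 2 times the level in Cytl1-positive cells that they had in Cytl1-negative cells, and for 327 (8.74%) the order was reversed by the same margin. Ratios are log2 of CPM + 1, which understates the change of low genes, and the median over all 3740 genes was -0.01. The members were chosen on Cytl1 in these cells, so this contrast is a description. Of the 208 higher genes 117 were under 50 CPM in Cytl1-negative cells and so were measured through the members' level alone. This also holds for each higher gene named below whose Cytl1-negative level is under 50 CPM.

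Elastic fibre genes were higher in part. Among the 14 measured genes of that list 6 passed 2 times the Cytl1-negative level, 0 lay under 0.5 of it, and the median log2 ratio was 0.77. Of these 6, 3 were under 50 CPM in Cytl1-negative cells. Eln was at 2065 CPM (1992 to 2139, Garwood 95% interval) in No-Touch members and 152 CPM (143 to 162) in Cytl1-negative cells, a log2 ratio of 3.75. By cell, Eln ranged from 0 to 15049 CPM with a median of 502 in the 59 members and from 0 to 3075 CPM with a median of 71.4 in the 306 Cytl1-negative cells, so the groups overlapped. Fbln5, fibulin 5, which ties elastin to cells, was at 639 CPM (599 to 681) against 141 CPM. Lox, lysyl oxidase, which crosslinks elastin and collagen, was at 143 CPM against 29.6 CPM. Ltbp2 and Ltbp3, latent TGF-beta binding proteins of the microfibril, were at 197 and 169.6 CPM against 40.3 and 50.5 CPM, and Emilin1, a glycoprotein of the elastin surface, was at 139 CPM against 41.6 CPM. Fbn1, fibrillin 1, stayed under 2 times (207 and 131 CPM), as did Fbln2 (481 and 432 CPM) and Mfap5 (162 and 123 CPM).

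Other matrix lists divided. Of 11 matricellular and adhesive glycoproteins 6 passed this limit upward and 1 downward, and their median was 1.43. Fn1, fibronectin, was at 2751 CPM (2667 to 2836) against 707 CPM, Thbs1, thrombospondin 1, at 2016 against 575 CPM, and Ccn1, a matrix protein induced by stretch, at 1731 against 499 CPM. Smoc1, a matrix antagonist of bone morphogenetic proteins, was at 120.0 CPM against 22.1 CPM, and Sparcl1 was lower, at 89.8 against 335 CPM. Of 11 collagens that the rule did not use, 3 were higher and 2 lower (median 0.08). The higher ones were Col8a1 of the subendothelium at 1125 against 159 CPM, and the fibril collagens Col5a2 at 924 against 227 CPM and Col5a1 at 151 against 68.2 CPM. The lower ones were both of basement membrane zones, Col4a2 at 212 against 507 CPM and Col15a1 at 35.5 against 302 CPM, with 64.2% of the members' Col15a1 UMIs in 1 cell. Among 8 measured proteoglycan genes 3 were higher and 0 lower (median 0.50), the leucine-rich Dcn and Bgn (2470.1 against 936 CPM), which fibroblasts also make, and the syndecan Sdc4 (331 against 91 CPM). Basement membrane genes had 1 higher and 1 lower of 9 (median 0.07), and the higher one was the netrin Ntn4, at 185 against 38.6 CPM.

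Mgp and the ligands Bmp4 and Bmp6 were high in members, while other genes of bone morphogenetic protein signalling were not uniform. Of 20 genes of the calcification and chondrogenic list only 4 were measured. All 4 were at least 2 times higher, with a median of 2.67, and 1 of them, Bmp6, was under 50 CPM in Cytl1-negative cells. Mgp was at 13722 CPM (13535 to 13911) in No-Touch members and 2115 CPM (2081 to 2149.8) in Cytl1-negative cells. It ranged by cell from 75.6 to 85831 CPM with a median of 7909.6 in members, and 59 of 59 had a UMI. Sorted leukocytes of that library, a measure of free RNA, had 996 CPM. The ligand Bmp4 was at 837 CPM (791 to 885) against 133 CPM, and the ligand Bmp6, which acts in iron and calcium balance, at 239 CPM (215 to 265) against 29.1 CPM. Fstl1, a follistatin-like binder of these ligands, was at 1164 against 418 CPM. Bmp2, a related ligand, was lower, at 4.02 CPM (1.48 to 8.75, 6 UMIs) against 38.3 CPM, both under the 50 CPM limit. Over 19 TGF-beta and BMP signalling genes 6 were higher and 2 lower (median 0.12), the higher ones being the receptor Bmpr1a (65.0 and 16.5 CPM), the inhibitory Smad6 (66.4 and 29.2 CPM), Tgfb2 (113 and 29.4 CPM), the activin subunit Inhba (133 and 44.5 CPM), its antagonist Fst (102 and 20.9 CPM) and Gdf15 (103 and 33.0 CPM). All 6 were under 50 CPM in Cytl1-negative cells, so they were measured through the group in which they were high. The lower ones were Smad1 (82.4 and 187 CPM) and the pseudoreceptor Bambi (20.8 and 53.9 CPM).

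**Figure D2:**
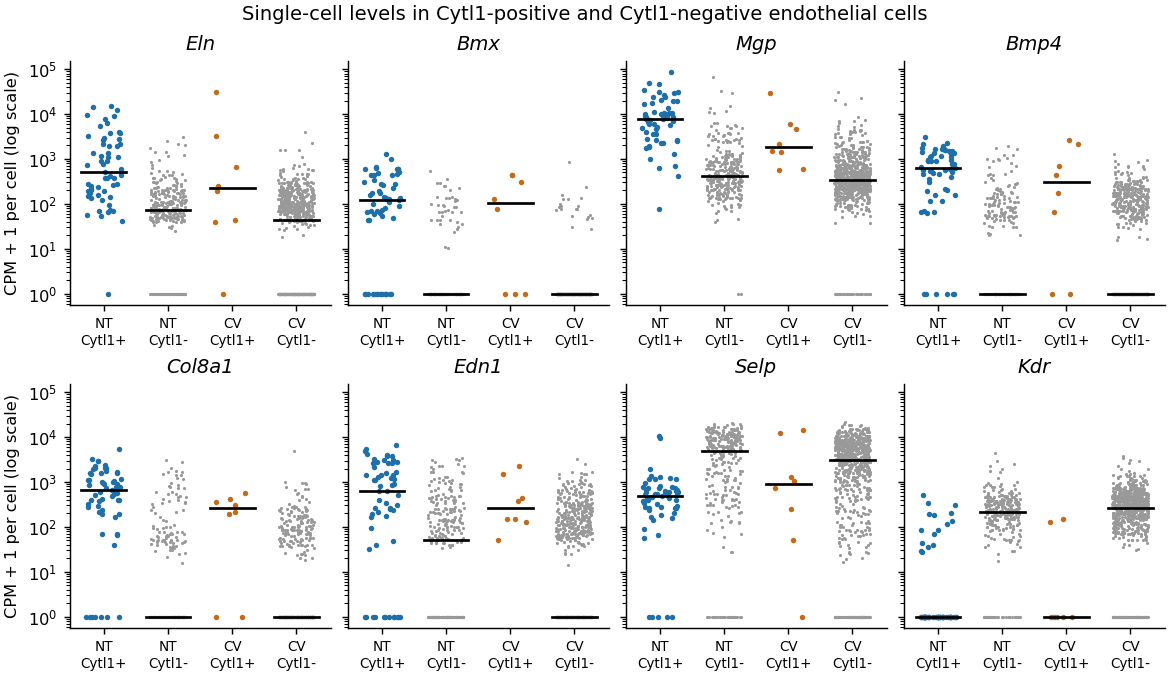
CPM + 1 in single cells (logarithmic vertical axis) for 8 genes in No-Touch (NT) and conventional (CV) Cytl1-positive (Cytl1+) and Cytl1-negative (Cytl1-) endothelial cells; each point is a cell, lines are medians, and cells without a UMI lie at 1. Eln, Bmx, Mgp, Bmp4, Col8a1 and Edn1 had higher medians in No-Touch members than in No-Touch Cytl1-negative cells, Selp and Kdr had lower medians, and the ranges overlapped for all 8 genes.

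Genes of large arteries and the endocardium were also higher, more than genes of arterial identity in general. Of 7 measured genes of the large artery and endocardial list 5 passed 2 times the Cytl1-negative level and 1 was lower (median 1.88). Clu, the secreted chaperone clusterin, was at 1729 against 296 CPM, Gata6, a zinc finger transcription factor, at 341 against 68.5 CPM, Ptgis, prostacyclin synthase, at 286 against 62.4 CPM and Edn1, the constrictor endothelin 1, at 1158 against 314 CPM. Gja1, connexin 43, was lower at 74.4 against 292 CPM. Of 13 genes of arterial identity and Notch signalling 3 were higher and 3 lower (median 0.18). Of the 3 higher, 1 (Bmx) was under 50 CPM in Cytl1-negative cells. Bmx was at 194 CPM (172 to 217) against 17.7 CPM, with UMIs in 44 of 59 members and 40 of 306 Cytl1-negative cells. The connexin Gja4 was at 138 against 56.2 CPM and the ephrin Efnb2 at 153 against 64.8 CPM. The Notch ligand Dll4 was lower at 16.1 against 86.5 CPM, as were Stmn2 at 39.5 against 135 CPM and the FOXO target Depp1 at 57.6 against 571 CPM. Sox17, a transcription factor of arteries, stood at 136 and 120.1 CPM, Hes1 at 370.0 and 458 CPM and Notch1 at 131 and 151 CPM.

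Venous and capillary genes were low. Of 13 venous and venular genes 0 were higher and 11 at least 2 times lower in No-Touch members (median -2.83). Selp was at 676 CPM (635 to 719) against 5427 CPM (5372 to 5483), and the related Sele, E-selectin, at 162 against 1468 CPM. The venous transcription factor Nr2f2 was at 46.9 against 245 CPM, the chemokine receptor Ackr1 of venules at 22.8 against 405 CPM, Lrg1 at 79.8 against 1009 CPM and the diaphragm protein Plvap at 161 against 941 CPM. Vwf (262 and 300.4 CPM) and the adhesion receptor Vcam1 (2153 and 2339 CPM) stayed under 2 times. Of 8 capillary genes 7 were lower and 1 higher (median -2.81). The fatty acid carriers differed in direction, with Fabp4 at 201 against 1671 CPM and Fabp5 at 306 against 108 CPM, with 51.8% of the members' Fabp5 UMIs in 1 cell. Kdr, the main receptor for VEGF-A, was at 27.5 CPM (19.7 to 37.3) against 252 CPM, and only 16 of 59 members had a Kdr UMI, against 265 of 306 Cytl1-negative cells. Flt1, the other VEGF receptor of blood endothelium, was at 207 against 579 CPM, and the homeobox factor Meox2 at 45.6 against 329 CPM.

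Set against each kind of endothelial cell, members stood highest for most of these genes. Cytl1-negative cells were divided by other markers into arterial-marker cells (at least 2 UMIs of Gja5 or Sema3g, 29 cells in the No-Touch library), capillary-marker cells (at least 2 UMIs of at least 2 of Gpihbp1, Cd300lg, Cd36 and Rgcc, 44 cells), Selp-high cells (213) and others (20). The order of Eln in the No-Touch library was 2065 CPM in members, 506 in others, 159 in arterial-marker, 141 in Selp-high and 91.0 in capillary-marker cells. Bmx was at 194 CPM in members, 64.6 in arterial-marker, 12.8 in Selp-high and 10.3 in other cells, with 0 UMIs in capillary-marker cells. Mgp was at 13722 CPM in members and 8676 in arterial-marker cells, and Col8a1 at 1125 and 513 CPM. Few arterial-marker cells carried this: Cytl1, Bmx, Eln and Mgp together made up 0.89% of their pooled UMIs and 0.0502% at the cell median, against 1.75% and 1.01% in members. The rule fixed part of this difference, since Cytl1 was at 1516 CPM in members and at 0 by definition in arterial-marker cells. In the conventional library Mgp was at 6473 CPM in members, 3398 in other and 563 in arterial-marker cells. For Kdr the members at 27.5 CPM lay under the 4 other groups, which ranged from 227 to 383 CPM. Members had more Selp (676 CPM) than arterial-marker (205 CPM) and other cells (107 CPM), and less than capillary-marker (3113 CPM) and Selp-high cells (7163 CPM), which were chosen on Selp.

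**Figure D3:**
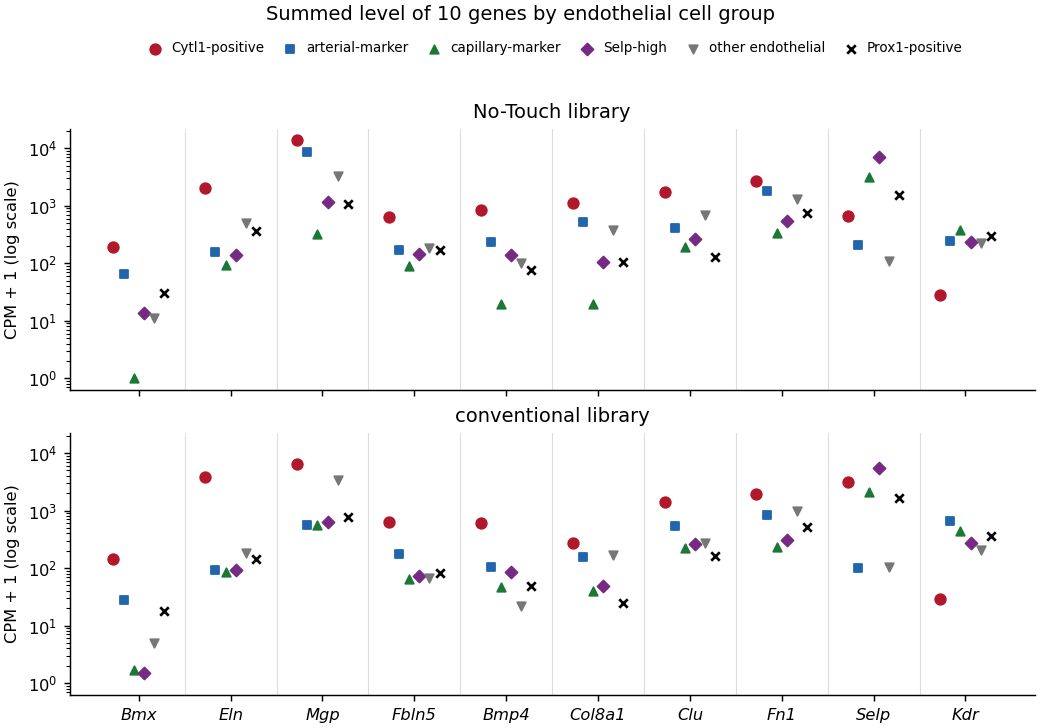
Summed level (CPM + 1, logarithmic vertical axis) of 10 genes in members and 5 other groups of endothelial cells, No-Touch library above and conventional library below. Each point is 1 group of cells of 1 library, and Cytl1-positive cells (red circles) were highest in both libraries for the first 8 genes and lowest for Kdr.

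Genes named for a change of endothelium toward mesenchyme gave no single direction. Of 11 measured, 4 were higher and 1 lower (median 0.82). Of the 4 higher, 2 (Twist1 and Tgfb2) were under 50 CPM in Cytl1-negative cells. Twist1, a transcription factor, was at 201 against 34.9 CPM, S100a4 at 445 against 93.5 CPM, Tgfb2 at 113 against 29.4 CPM and Acta2, smooth muscle actin, at 916 against 281 CPM. Sorted leukocytes had 576 CPM of Acta2. Of the members' Acta2 UMIs 43.7% lay in 1 cell, and 41 of 59 members had a UMI. The median by cell was 69 CPM in members and 9.65 CPM in Cytl1-negative cells. Whether the other members carried Acta2 beyond free RNA was not tested. Snai1 was lower (28.8 and 61.6 CPM), and the intermediate filament gene Vim stood at 5893 and 6785 CPM.

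Endothelial transcription factors were lower more often than higher. Of 22 measured 10 had at most 0.5 of the Cytl1-negative level and 2 had at least 2 times it (median -0.35). Meox1 was at 10.7 against 207 CPM, Ets1 at 79.1 against 323 CPM, Ets2 at 71.7 against 301 CPM and Fli1 at 91.8 against 239.8 CPM. Lmo2 was higher at 295 against 128 CPM, as was the valve and lymphatic factor Foxc2 at 65.7 against 29.5 CPM. Erg, which maintains endothelial identity, stood at 99.2 and 124 CPM.

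Among genes of vessel tone and flow, 4 of 11 vasoactive mediators were higher and 2 lower (median 0.47). Besides Edn1 and Ptgis the higher ones were Ptgs2, cyclooxygenase 2, at 476 against 184 CPM, and Sod3, extracellular superoxide dismutase, at 137 against 53.9 CPM. The receptor Calcrl was lower at 75.7 against 353 CPM. Of 14 flow response genes 2 were higher and 2 lower (median 0.28), with Klf2 at 3675 and 2375 CPM, Klf4 at 1297 and 737 CPM and Nos3, endothelial nitric oxide synthase, at 71.7 and 79.3 CPM.

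Some inflammatory genes were lower in No-Touch members. Of 21 cytokines and NF-kappaB targets 7 were lower by this margin and 1 was higher (median -0.66). Csf3, which encodes the neutrophil growth factor G-CSF, was at 9.38 against 195 CPM, Cxcl1 at 1156 against 2865 CPM, the NF-kappaB inhibitors Nfkbia at 2138 against 5081 CPM and Tnfaip3 at 204 against 529 CPM. Saa3 was the higher one at 379 against 58.3 CPM, with 83.5% of its UMIs in 1 member. Of 12 leukocyte adhesion genes 4 were lower and 1 higher: Icam1 was at 766 against 2671 CPM (median of the list -0.16), and Alcam, the higher one, at 99.2 against 16.9 CPM.

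Smaller lists held single large differences. In the Wnt list the secreted inhibitors Sfrp1 (339.9 and 41.2 CPM) and Frzb (79.1 and 13.3 CPM) were the 2 higher of 6, with 1 lower. Both higher ones were under 50 CPM in Cytl1-negative cells. In the IGF list the insulin receptor Insr (28.8 and 344 CPM) and the binding proteins Igfbp3 (25.5 and 312 CPM, 89.5% of UMIs in 1 member) and Igfbp7 (909.6 and 2154 CPM) were among the 4 lower of 10. In the junction list Cgnl1, paracingulin, was higher at 180.3 against 24 CPM. In the list of axon guidance genes 3 of 12 were higher and 4 lower, among them Slit2 at 95.2 against 25.7 CPM and the receptor Nrp2 at 28.8 against 212 CPM. Hypoxia and glycolysis genes had 1 higher and 3 lower of 13 (median -0.14), and stress genes that often mark tissue dissociation (immediate early, heat shock) had 0 higher and 2 lower of 20 (median 0.06). Mki67, a gene of dividing cells, had a UMI in 7 of 59 members.

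**Figure D4:**
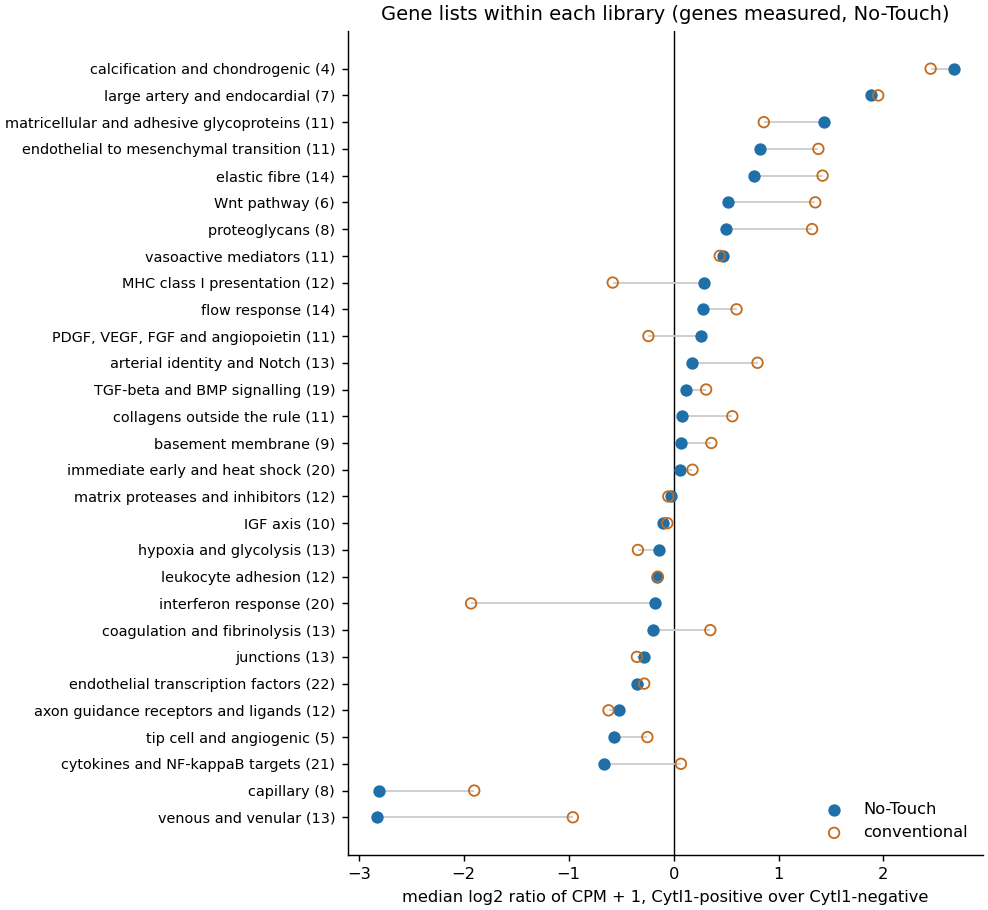
Median log2 ratio of CPM + 1, Cytl1-positive over Cytl1-negative cells (horizontal axis), of each gene list with at least 4 genes at 50 CPM or more in both libraries; filled blue points are the No-Touch and open orange points the conventional library, and the number of genes measured in the No-Touch library is in parentheses. Calcification, large artery, matricellular and elastic fibre lists lay on the right and capillary and venous lists on the left in both libraries.

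The No-Touch members were not uniform. UMIs of Bmx, Eln and Mgp were found together in 44 of 59 members, Gja5 in 21, Sema3g, a marker of small arteries, in 8 and Selp in 54. At 5000 UMIs per cell the shares with a UMI were 77.6% for Eln, 69.0% for Fbln5, 41.4% for Bmx and 13.8% for Gja5. In sorted leukocytes, which had 250 cells of that depth, they were 34.8%, 16.4%, 0.400% and 0.400%, and in Cytl1-negative cells 38.1%, 36.4%, 4.30% and 1.66%. Members with 2 to 5 Cytl1 UMIs (16 cells) had 2156 CPM of Edn1, those with 6 to 19 (15 cells) 1376 CPM and those with 20 or more (28 cells) 624 CPM. Eln went the other way, at 722, 2525 and 2478 CPM, and S100a4 was at 55.6, 322 and 669 CPM. Dcn was at 1553, 1964 and 5013 CPM in the same bands, and its part in the order of Eln was not tested. Bmx was at 189, 215 and 187 CPM. The bands were cut on Cytl1 UMIs, on which members were chosen, and had median depths of 16966, 19117 and 28692 UMIs. The part of depth in these orders was not tested. Over the 59 cells, which share 1 library, Spearman's rho with Cytl1 CPM was 0.51 for Cgnl1, 0.50 for S100a4, 0.32 for Eln, -0.37 for Edn1, 0.05 for Bmx and 0.00 for total UMIs, given as a description.

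The 8 conventional members are described cell by cell because 1 cell often set their sum. Of their 546 Eln UMIs 90.1% came from 1 cell, as did 84.6% of 91 Fbln5 UMIs, and that cell had 30696 CPM of Eln, 437 CPM of Bmx and 249.6 CPM of Gja5. The cell with the most Cytl1 (5689 CPM, 53 UMIs) had 3327 CPM of Eln, 429 CPM of Bmx and 6011 CPM of Mgp. A further cell with 301 CPM of Bmx had 251 CPM of Eln and 2207 CPM of Mgp. A cell with 29501 CPM of Mgp, 74.0% of all Mgp UMIs of the 8, also had 8344 CPM of Dcn and 3491 CPM of Acta2. Another cell had 16227 CPM of Dcn with 0 UMIs of Bmx, Selp and Vwf. The cell with 897 CPM of Sema3g had 0 Bmx UMIs. The last 2 cells had 12211 and 14229 CPM of Selp, 191 and 0 CPM of Eln and 0 and 74.1 CPM of Bmx. All of Bmx, Eln and Mgp had a UMI in 4 of the 8. The matrix-rich label therefore held for the No-Touch members as a sum and for some of the conventional ones. It did not hold for every No-Touch member. Cytl1, Bmx, Eln and Mgp together made up 0.034% of UMIs in the lowest one, under the median of No-Touch Cytl1-negative cells (0.056%). Without the 8% of barcodes with the highest Scrublet doublet scores, 3 of 8 conventional and 55 of 59 No-Touch members were left. In the conventional library this removed 5 of 8 members but 61 of 753 Cytl1-negative cells. In the No-Touch library it removed 4 of 59 members and 21 of 306 Cytl1-negative cells. High doublet scores were thus more frequent among the conventional members than among other endothelial cells of that library.

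Within these limits of 8 cells, many genes that stood out in the No-Touch library did so in both. In both libraries alike, 111 of 3329 genes (3.33%) passed 2 times the Cytl1-negative level and 139 (4.18%) lay under 0.5 of it. Of the 149 genes higher in the No-Touch library and measured in both, 111 were also higher in the conventional one, and of 302 lower ones 139 were. Of all 3329 genes measured in both, 6.82% were higher and 10.8% lower in the conventional library. The 111 genes higher in both became 40 without high doublet scores and 62 with each gene's highest member cell left out, and the 139 lower in both became 254 in the latter case. The conventional log2 ratios were 5.25 for Eln, 5.15 for Bmx (145 CPM, 89.9 to 222, against 3.12 CPM), 4.28 for Bmp6 (256 against 12.2 CPM), 3.08 for Bmp4 and 2.92 for Mgp. Other genes with the largest ratios in both libraries were the xylosyltransferase Gxylt2 (2.81 in the No-Touch and 4.06 in the conventional library), the peptide processing enzymes Cpe (2.35 and 3.59) and Pam (2.26 and 2.56), Clu (2.54 and 2.37), Cgnl1 (2.86 and 2.81), Ntn4 (2.23 and 3.73), S100a4 (2.24 and 2.83), Smoc1 (2.39 and 4.92) and Fbln5 (2.17 and 2.98). Without high doublet scores the conventional ratios of Gxylt2, Smoc1 and Fbln5 were -3.85, -2.13 and -0.38.

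Lowest in both were genes of which members had few UMIs. The conventional members had 1 UMI each of Csf2rb2 and Aplnr, the apelin receptor, 2 each of Meox1 and Spry1, an inhibitor of receptor tyrosine kinase signalling, 3 each of Igfbp3 and Mctp1 and 4 each of Kdr and Pcdh17. In the No-Touch members Csf2rb2 was at 4.69 CPM (1.89 to 9.67) against 192 CPM, Aplnr at 4.69 against 104 CPM, Spry1 at 15.4 against 185 CPM, Mctp1 at 11.4 against 296 CPM and Pcdh17 at 14.7 against 184 CPM. Csf2rb, a receptor subunit for GM-CSF and related cytokines, was at 4.02 against 285 CPM, Ehd3 at 28.8 against 313 CPM, Tmem252 at 48.3 against 455 CPM and Tcim at 79.1 against 573 CPM.

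Venous and inflammatory ratios were nearer 0 in the conventional members, a difference between libraries that was not tested. Of all 3808 genes measured there, 371 (9.74%) passed 2 times the Cytl1-negative level and 426 (11.2%) lay under 0.5 of it. Of 14 venous genes 6 lay under 0.5 of the Cytl1-negative level and 0 above 2 times it (median -0.96), with Selp at 3091 against 3702 CPM, 43.0% of it in 1 cell. Of 11 capillary genes 8 were lower, and the median was -1.90, or -1.89 with Gpihbp1, Rgcc and Cd300lg, which had 0 UMIs in members, set to the limit of 3 UMIs. Of 22 cytokines and NF-kappaB targets 3 were lower and 1 higher, with a median of 0.07. Icam1 stood at 3955 and 3826 CPM. The large artery list had a median of 1.95 and the elastic fibre list 1.42. Without the barcodes of highest doublet score, which left 3 cells, the median of the large artery and endocardial list was -0.02 and that of the elastic fibre list -0.50, with Fbln5 at -0.38, so these directions did not hold there.

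The last comparison set No-Touch against conventional members. No-Touch members had at least 2 times the conventional level for 408 of 3780 genes (10.8%) and at most 0.5 of it for 338 (8.94%). The Garwood intervals of the libraries lay apart for 238 of the higher and 222 of the lower genes. The 8 conventional members held 144609 UMIs in all, and these counts of genes moved by more than 1.5 times under several settings.

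Interferon response genes, which cells induce in viral infection and inflammation, and MHC class I genes, which present peptides to T cells, were lower in conventional members. In the interferon list 15 of 18 measured genes passed 2 times the conventional level in No-Touch members and 0 lay under 0.5 of it. The median log2 ratio was 2.56, against -0.03 over all genes and 0.59 for the same genes in Cytl1-negative cells. Within the conventional library 15 of 19 measured interferon genes lay under 0.5 of the Cytl1-negative level in members (median -1.93, or -1.67 with Ifit3, Ifih1 and Rsad2, which had 0 member UMIs, set to 3 UMIs), as did 11.2% of all genes measured there, and within the No-Touch library 1 of 20 did (median -0.18). With Ifit3, at 0 UMIs in conventional members, set to 3 UMIs the median was 2.44. Summed over the 24 genes of the list, interferon RNA made up 0.0499% to 0.337% of a conventional member, with a median of 0.179%, and 0.0501% to 2.42% of a No-Touch member, with a median of 0.56%. In Cytl1-negative cells the medians were 0.346% and 0.558%, so No-Touch members stood level with their Cytl1-negative neighbours and conventional members below theirs, and the cells of all groups overlapped. Gbp2, a guanylate binding protein, was at 839 CPM in No-Touch and 111 CPM in conventional members, Igtp, an immunity-related GTPase, at 367 and 34.6 CPM, Iigp1 at 2057 and 401 CPM and Bst2, which tethers viruses, at 1089 and 201 CPM. Irf1, a transcription factor of the response, stood at 865 and 761 CPM.

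All 12 measured MHC class I genes were at least 2 times higher in No-Touch members (median 1.46, against 0.39 in Cytl1-negative cells). Their sum made up 0.566% to 2.46% of a No-Touch member, with a median of 1.36%, and 0.359% to 0.89% of a conventional member, with a median of 0.555%. The medians of Cytl1-negative cells were 1.02% and 0.632%. B2m, the common light chain, was at 5048 CPM (4934 to 5163) and 1328 CPM in members and at 3661 and 1610.3 CPM in Cytl1-negative cells. H2-K1 was at 3301 and 1494 CPM in members and H2-D1 at 3362 and 1501 CPM. Because MHC class I sequences resemble one another closely, the division of counts among them is uncertain. Both list medians stayed above 1 under every setting tried, from 2.26 to 3.1 for interferon and from 1.27 to 1.84 for MHC class I genes.

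**Figure D5:**
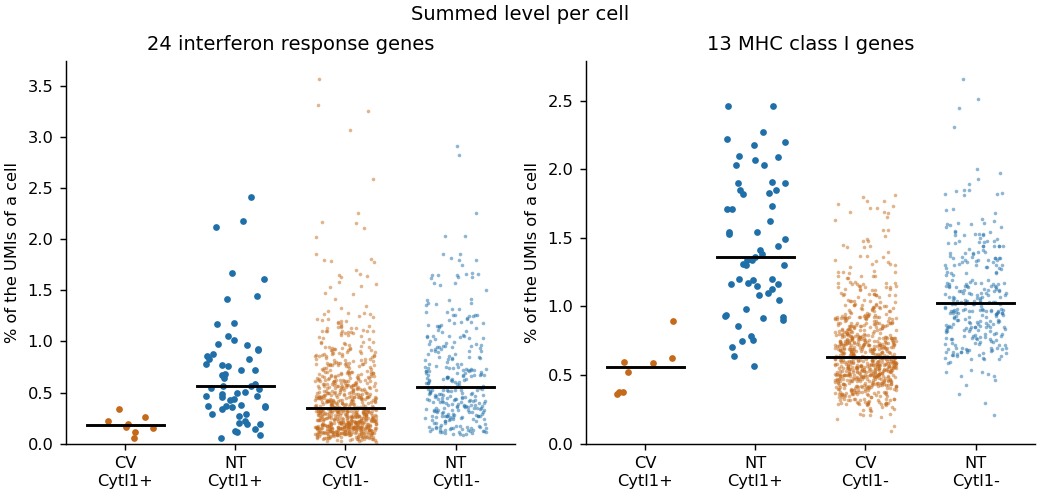
Summed UMIs of 24 interferon response genes (left) and 13 MHC class I genes (right) as percent of the UMIs of each cell (vertical axis) in Cytl1-positive (Cytl1+) and Cytl1-negative (Cytl1-) endothelial cells of the conventional (CV, orange) and No-Touch (NT, blue) libraries; lines are medians. Conventional members lay low in both panels, with medians of 0.179% and 0.555%, and No-Touch members had medians of 0.56% and 1.36%.

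Of the 10 genes with the highest ratios, 3 had 0 UMIs in the conventional members, which were set to 3 UMIs in all 8 cells together. Against that limit Ankrd1, a stretch-induced ankyrin repeat protein, was 8.53-fold higher in No-Touch members (177 CPM). Inhba was 6.4-fold higher (133 CPM) and Fst 4.91-fold higher (102 CPM). The exact 95% lower bounds of the ratios to 0 UMIs were 6.89, 5.15 and 3.95, and cover counting error only. Ankrd1 had UMIs in 13 of 59 No-Touch members, 35.2% of them in 1 cell. In Cytl1-negative cells Ankrd1 also differed, at 96.5 CPM (No-Touch) and 4.01 CPM (conventional). Inhba was at 44.5 and 25 CPM there and Fst at 20.9 and 28 CPM. Psmb10, a subunit of the immunoproteasome, had 1 UMI in conventional and 191 in No-Touch members, a ratio of 18.5 (3.28 to 735, exact interval of the ratio of counts). Gbp4 was at 27.7 and 369 CPM. Nrg1, the growth factor neuregulin 1, and the protease inhibitor Serpinb1a had 1 UMI each in conventional members and 111 and 105 CPM in No-Touch members. Apod, apolipoprotein D, was at 55.3 and 1057 CPM, but 95.2% of its No-Touch UMIs came from 1 cell, as did 64.1% of those of the eosinophil attractant Ccl11.

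Of the 10 genes with the lowest ratios, most rested on few conventional cells. Csf3 was at 194 CPM (28 UMIs, 89.3% in 1 cell) in conventional and 9.38 CPM in No-Touch members. Gdf15, a stress-induced cytokine, was at 851 CPM (74.8% in 1 cell) and 103 CPM. The placental growth factor Pgf was at 124 and 7.37 CPM, the Notch ligand Dll4 at 118 and 16.1 CPM, Gas1 at 173 and 22.1 CPM (92.0% in 1 conventional cell) and Ptprr at 111 and 14.1 CPM (93.8% in 1 cell). All 18 conventional UMIs of Tnfsf9, the ligand of 4-1BB, came from 1 cell. Ackr1 was at 235 CPM (79.4% in 1 cell) and 22.8 CPM. Pth, parathyroid hormone, had UMIs in 8 of 8 conventional members, at 179.8 CPM against 681 CPM in Cytl1-negative conventional cells and 13.4 CPM in No-Touch members, and Gt(ROSA)26Sor was at 297 and 24.8 CPM in members and at 288 and 24.2 CPM in Cytl1-negative cells.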

How the data were processed

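The deposited files are UMI count matrices of genes by cell barcodes, 1 for each of 2 sorted CD45-negative libraries. The authors made these counts with Cell Ranger, version 3.1.0 on mm10 per the submitters' processing notes and version 6.0.0 per the file headers. The kit is version 2 or 3 per the labels' protocols, and no source used here says whether counting used strand. The protocol text also describes sorts of other cells, which are not analysed here.

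Cells were chosen by the limits given with the results. Doublets were kept, and removal of the 8% highest Scrublet scores of each library was an alternative, since automatic calling marked 241 conventional and 0 No-Touch barcodes. UMIs were summed over the cells of each group and scaled to CPM. Ratios are log2 of CPM + 1. A gene was measured at 50 CPM in either group and called at 2 times, genes of the rule left out. Counts carry Garwood and shares Clopper-Pearson intervals at 95%, which cover counting error only. A group at 0 was set to 3 UMIs in all its cells together. With 1 library for each graft no test of the conditions is possible.

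The members and gene lists were chosen with earlier results of these data known, and lists share genes. Named by rule were the 15 genes with the highest and the 12 with the lowest ratio shared by both libraries, the 10 highest and 10 lowest ratios between the libraries, at 100 CPM and with intervals apart for the latter, and up to 4 strongest and the 2 most abundant genes of a list. Genes named beyond it were chosen after their values were seen, and some genes it names are not reported here. Alternatives were thinning to 5000 UMIs, other thresholds of Cytl1, mitochondrial RNA, gate and collagen, doublet removal, a limit on mesenchymal markers, median-of-ratios scaling, 10 CPM, a pseudocount of 10, means over cells and, added after the data were seen, each gene without its highest member cell and members with a Bmx, Gja5 or Sema3g UMI. Python 3.11.15, numpy 2.4.6, scipy 1.17.1, pandas 2.3.3, scanpy 1.11.5 and matplotlib 3.10.9 were used.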

Additional observations from a re-analysis of the deposited data

Results flagged for a closer look

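Pgf, placental growth factor, pointed in opposite directions in the 2 libraries. Its log2 ratio of Cytl1-positive over Cytl1-negative cells was 1.37 in the conventional library, where members had 18 UMIs, and -2.13 in the No-Touch library, where they had 11. The difference between the libraries was not tested.

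Tnfsf9 did so between cell groups. Its log2 ratio of No-Touch over conventional was -3.12 in members and 1.32 in Cytl1-negative cells, and this difference was not tested either. All 18 conventional member UMIs lay in 1 cell.

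Cytl1 was also found outside the cells described. At least 2 Cytl1 UMIs were present in 29 conventional and 95 No-Touch barcodes that passed the depth limits and not the endothelial gate. In the No-Touch library 10 of these had a Prox1 UMI with at least 4 endothelial genes and 3632 CPM of Eln, 101 CPM of Bmx and 8601 CPM of Mgp. Another 14 exceeded the collagen limit and had 1263 CPM of Eln and 72.2 CPM of Bmx. Those with 1 to 3 endothelial genes (45) or none (26) had 0 Bmx UMIs, 1891 and 1628 CPM of Eln and 19317 and 23659 CPM of Mgp. Their Dcn was at 8192 and 9203 CPM, against 3511 CPM in members. In the conventional library 11 had a Prox1 UMI, with 199.7 CPM of Eln and 49.9 CPM of Bmx, 13 had 1 to 3 endothelial genes and 5 had none.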

How the results depend on the processing

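The No-Touch share of members stayed above the conventional share under every setting tried, with ratios from 9.84 (1 Cytl1 UMI) to 42.8 (thinned), and 37 without high doublet scores, against 15.2. Counts of genes moved by over 1.5 times as follows. For No-Touch over conventional members, higher and lower counts were 891 and 1063 when thinned, 962 and 810 without high doublet scores, 681 and 550 under the limit on mesenchymal markers, 1738 and 1065 at 10 CPM, and 721 and 124 with each gene's highest member cell left out. Genes higher in both libraries were 40 without high doublet scores, 252 at 10 CPM and 62 without the highest cell, and genes lower in both were 319 at 10 CPM and 254 without the highest cell. Some values changed sign. Without high doublet scores, which left 3 conventional members, conventional ratios were -3.85 for Gxylt2, -2.13 for Smoc1 and -0.38 for Fbln5, and list medians -0.02 (large artery), -0.50 (elastic fibre) and -0.11 (endothelial to mesenchymal). That last list was at -0.37 without the highest cell. Between libraries, Tnfsf9 was at 3.78 with 5 of 6 gate genes, 3.32 without high doublet scores, 3.31 under the marker limit, 3.61 without the highest cell and 3.44 in members with an arterial gene. Gas1 was at 3.93 and Ptprr at 4.07 without high doublet scores, and Gas1 at 0.01 in members with an arterial gene. Causes were not tested beyond the smaller number of cells. List medians held within the limits of the main value for 963 values, moved for 53 and changed sign for 4. Named genes held for 756, moved for 121 and changed sign for 11. No replicate could be left out, and no paired analysis was possible because each graft has 1 library. Depth limits the conventional side most, where 8 cells held 144609 UMIs.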
